A study of Mus musculus with 18 samples.

Results

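The 39 genes described here encode the contractile machinery of smooth muscle, which forms the outer wall of the uterus (the myometrium) and surrounds its blood vessels. They were chosen by name: 10 thin-filament genes, 8 genes of myosin and its phosphorylation, 9 genes of dense bodies and intermediate filaments, 5 of membrane attachment, 5 of membrane excitation and calcium, and 2 transcription regulators. A peak was counted for a member when the annotation named that gene as the holder of the exon or intron, or when the gene the authors assigned to the peak was a member that spanned the peak centre. This rule placed 199 differential m6A peaks in 30 of the 39 members, out of 28573 peaks placed in any gene and 40929 peaks used in all.

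Uteri came from wild-type pregnant ICR mice on day 5 of pregnancy, the plug day being day 1. Veh mice received vehicle by intraperitoneal injection once daily from day 1 to day 4. LPS mice received vehicle on the same days and lipopolysaccharide, a bacterial cell-wall product that provokes inflammation, on day 3 and day 4. Mel+LPS mice received melatonin on days 1 to 4 and LPS on days 3 and 4. Each treatment had 3 input libraries and 3 libraries immunoprecipitated with an antibody to N6-methyladenosine (m6A), 18 libraries in all, from RNA of the whole uterus. The authors deposited differential peaks in 4 tables, 1 for each comparison and direction. A peak that was up had the stronger m6A signal in the first-named treatment. LPS-up and LPS-down peaks are those of LPS vs Veh, and Mel+LPS-up and Mel+LPS-down peaks those of Mel+LPS vs LPS. Both comparisons use the LPS libraries, so their values are set side by side and are not independent of each other.

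Smooth muscle shortens when myosin filaments pull on actin filaments that are anchored in dense bodies and in the cell membrane. Calcium entering through membrane channels or leaving internal stores activates myosin light chain kinase, which phosphorylates the regulatory light chain of myosin, and myosin phosphatase reverses this. The uterus stays quiet during early pregnancy and contracts at term. N6-methyladenosine is a methyl mark placed on mRNA by the METTL3-METTL14 complex, mostly within the DRACH sequence, of which GGAC is a common core. It is known to be frequent near stop codons and in 3′UTRs, and reader proteins that bind it affect the stability and translation of the mRNA.

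Each peak had 1 score, the log10 likelihood ratio, which says how much better the signal is described by a difference between treatments than by none. The score is not a fold change, and it exists once per comparison and not per replicate. No error between replicates, no read depth and no test could therefore be given for a peak. Intervals on shares are Wilson 95% intervals, which cover the counting of peaks or genes in these tables and not the spread between mice; several peaks of 1 gene share their RNA and are not independent. The tables hold no expression levels. A changed m6A level, a changed amount of the transcript, and in whole uterus fewer smooth muscle cells or less RNA per cell cannot be told apart, and the labelled tissue could not be checked against its markers. The table of LPS-down peaks is complete for chromosomes 1 to 9 only, which hold 20 of the 39 members. The other 19 members were not analysed in that table.

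Sequences at exon sites of the members are shown first, in the GRCm38 build, 5′ to 3′ on the coding strand, with each GGAC in capitals. They come from GENCODE transcripts and lie within 60 bases of the peak centre after a move of 100 bases in the 5′ direction, which is explained below, and are cut at the exon's ends. The first group holds exon or UTR sites at which an LPS-down peak overlapped a Mel+LPS-up peak. These are in Synm (synemin, an intermediate filament protein), Actg2 (smooth muscle gamma actin), Des (desmin, the main intermediate filament protein of muscle) and Tagln (transgelin, an actin-binding protein). Exon 12 of 14 of Cald1 held such an overlap too, and its stretch is not shown. For Synm and Actg2 the 2 sites with the highest scores are shown, each at the peak with the higher score. For Des the coding site is shown whose stretch does not reach a UTR, although its scores are the lowest of the Des overlaps, and for Tagln the stretch was placed on the GGAC nearest to the moved centre.
Synm exon 4 of 4, chr7:67733927-67734047, minus strand: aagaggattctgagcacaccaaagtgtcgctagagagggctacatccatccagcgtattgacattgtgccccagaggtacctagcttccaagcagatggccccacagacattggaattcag
Synm exon 4 of 4, chr7:67734433-67734553, minus strand: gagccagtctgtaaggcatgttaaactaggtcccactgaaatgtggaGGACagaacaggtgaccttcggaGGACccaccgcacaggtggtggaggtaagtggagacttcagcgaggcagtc
Actg2 exon 7 of 9, chr6:83519797-83519917, minus strand: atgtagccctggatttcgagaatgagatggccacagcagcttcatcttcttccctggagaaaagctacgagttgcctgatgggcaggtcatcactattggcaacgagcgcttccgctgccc
Actg2 exon 8 of 9, chr6:83516276-83516396, minus strand: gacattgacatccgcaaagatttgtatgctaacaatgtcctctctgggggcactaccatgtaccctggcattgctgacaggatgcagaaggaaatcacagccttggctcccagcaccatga
Des exon 4 of 9, chr1:75362581-75362701, plus strand: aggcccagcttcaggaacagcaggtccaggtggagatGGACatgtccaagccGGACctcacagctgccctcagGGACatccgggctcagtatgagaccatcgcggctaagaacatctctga
Tagln 3′UTR, 30 bases, chr9:45929714-45929743, minus strand: tactgggagtggtGGACttgtttgggtttt
The second group holds the 4 exon peaks of members with the highest scores after that of Synm. These are in Itpr1 (a calcium release channel of the endoplasmic reticulum), Dmd (dystrophin, which links the cytoskeleton to the membrane) and Flna (filamin A, which cross-links actin). The stretches of Itpr1 exon 39 and Dmd exon 39 belong to LPS-up peaks, and the other 2 to Mel+LPS-up peaks.
Itpr1 exon 39 of 63, chr6:108417895-108418000, plus strand: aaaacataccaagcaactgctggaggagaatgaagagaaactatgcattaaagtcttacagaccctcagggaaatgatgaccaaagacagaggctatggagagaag
Dmd exon 39 of 78, chrX:83924887-83924989, plus strand: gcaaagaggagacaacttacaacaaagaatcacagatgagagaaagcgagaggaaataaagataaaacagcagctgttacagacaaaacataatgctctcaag
Itpr1 exon 29 of 63, chr6:108394835-108394900, plus strand: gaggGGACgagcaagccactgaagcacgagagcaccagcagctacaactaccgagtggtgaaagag
Flna exon 21 of 48, chrX:74236759-74236879, minus strand: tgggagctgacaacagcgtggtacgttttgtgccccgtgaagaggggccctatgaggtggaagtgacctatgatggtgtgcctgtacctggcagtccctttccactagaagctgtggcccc

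In Mel+LPS vs LPS, member peaks were mostly up. Of the 39 members, 26 had a peak that was up (66.7%, Wilson 95% interval 51.0% to 79.4%), and 12 had one that was down (30.8%, 18.6% to 46.4%). Over all protein-coding genes, the share with an up peak was 25.6% and the share with a down peak 15.3% by the same rule. Among the protein-coding genes with a peak in any table the shares were 60.6% and 36.2%, and among the 30 members with a peak they were 86.7% and 40%. Of 123 member peaks in this comparison, 99 were up (80.5%, 72.6% to 86.5%), compared with 64.8% of the 16134 peaks placed in any gene. Of the 27 members with a peak here, 22 had more up than down peaks, 2 had more down than up (Dmd and Kcnma1), and 3 had as many of each (Smtn, Ppp1r12b and Csrp1). With scores of at least 3, 36 of 53 member peaks were up (67.9%, 54.5% to 78.9%), and the share over all placed peaks, 54.4%, lay just outside this interval. With scores of at least 6 it was 9 of 14 (64.3%), against 60.1%.

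In LPS vs Veh, member peaks on chromosomes 1 to 9 were mostly down. Of the 20 members on these chromosomes, 12 had a down peak (60%, 38.7% to 78.1%), compared with 22.0% of all protein-coding genes there and 49.2% of those with a peak in any table. Of the 20, 6 had an up peak (30.0%, 14.5% to 51.9%), compared with 20% of all protein-coding genes there and 44.7% of those with a peak in any table. Among the 15 of these members with a peak in any table, the shares were 80.0% down and 40% up. Of the 39 members on all chromosomes, 15 had an up peak (38.5%, 24.9% to 54.1%), or 50% of the 30 with a peak, compared with 20.1% of all protein-coding genes and 47.6% of those with a peak in any table. On chromosomes 1 to 9, 14 of 54 member peaks were up (25.9%, 16.1% to 38.9%), compared with 48.6% of 8539 peaks placed in any gene. Without Synpo2, the member with the most peaks, 7 of 37 were up (18.9%). With scores of at least 3, 8 of 21 were up (38.1%, 20.8% to 59.1%), an interval that includes the 50.5% of all placed peaks. With scores of at least 6, 4 of the 6 member peaks left were up (66.7%, 30.0% to 90.3%), against 52.2%.

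**Figure D1:**
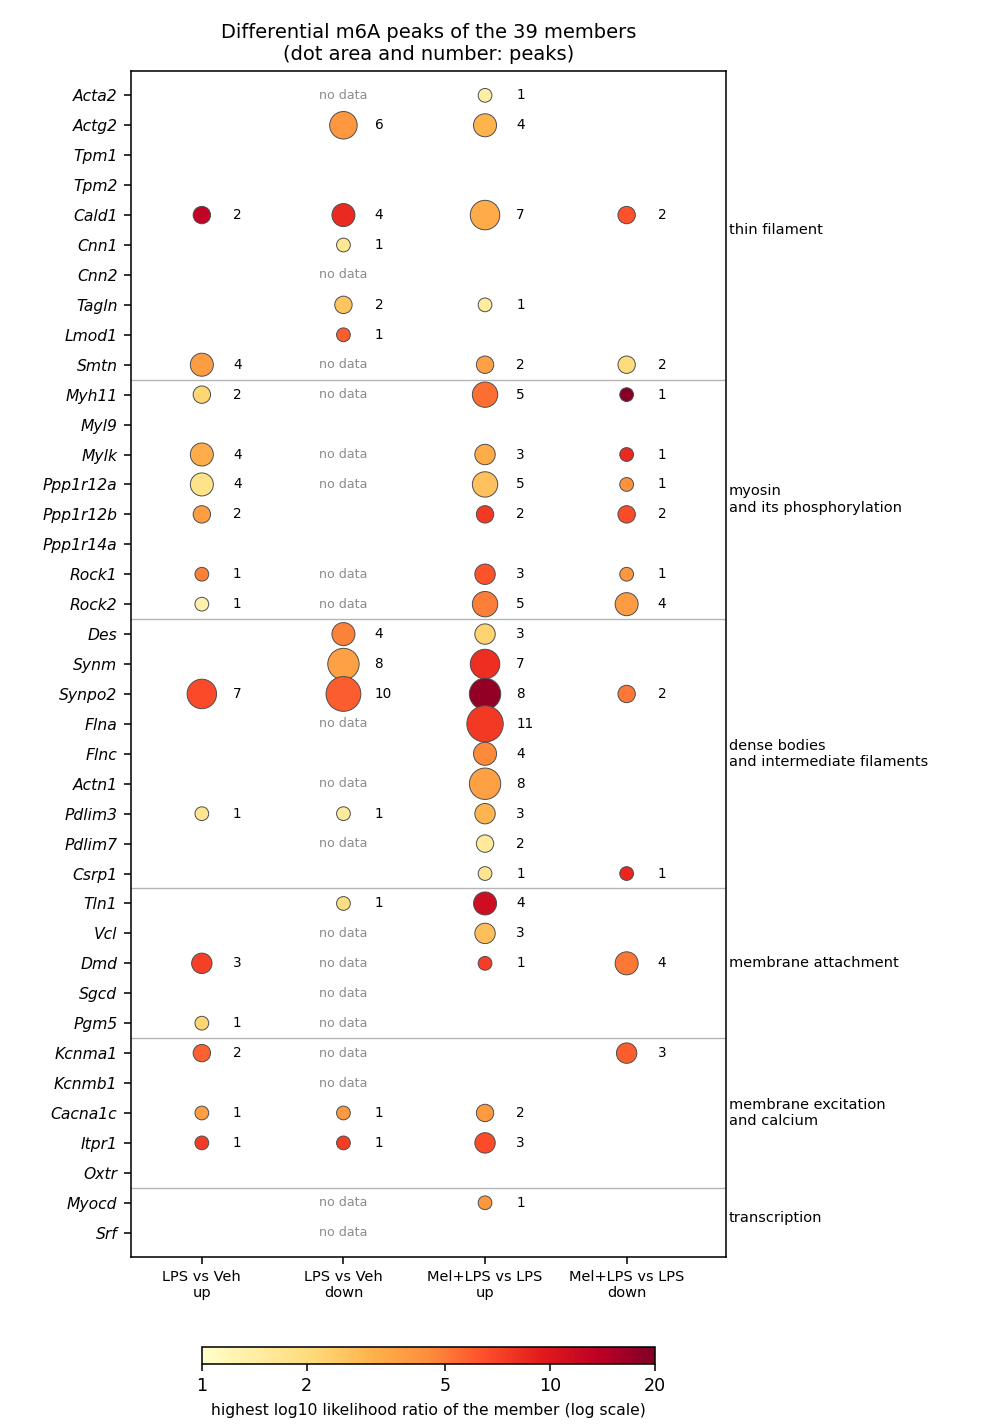
Each of the 39 members (rows, grouped by role) in each of the 4 tables (columns); dot area and the number beside it give the peaks, and colour gives the highest log10 likelihood ratio on a log scale. "No data" marks the 19 members that lie outside chromosomes 1 to 9, where LPS-down peaks were not analysed; Flna has the most peaks of any member in 1 table, 11, all up in Mel+LPS vs LPS.

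Direction and place in the gene went together. Peaks of exon or UTR class made up 85 of the 99 Mel+LPS-up peaks (85.9%), close to the 84.4% of all placed peaks in that table. They made up only 4 of the 24 down peaks (16.7%, 6.68% to 35.9%), compared with 62.9% of all placed peaks. Of 89 exon or UTR peaks of members in this comparison, 85 were up (95.5%, 89.0% to 98.2%), against 71.2% of all placed peaks of these classes. Of 34 intron peaks, 14 were up (41.2%, 26.4% to 57.8%), and the share over all placed intron peaks was 43.1%. By feature class, the interval of the members' exon peaks excluded the share of all genes, while that of their intron peaks included it. The intron class was mixed, and unevenly by direction. With the centre moved as explained below, 8 of its 14 up peaks but 1 of its 20 down peaks lay on an exon of the member. Its peaks that stayed off the exons were 6 up and 19 down. Whether all placed intron peaks divide by direction in the same way was not tested.

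In LPS vs Veh on chromosomes 1 to 9, 6 of 27 exon or UTR peaks were up (22.2%, 10.6% to 40.8%), against 48.1% of all placed peaks of these classes. Of 26 intron peaks, 8 were up (30.8%, 16.5% to 50%), against 50% over all placed intron peaks. Introns held 8 of the 14 up peaks of members on these chromosomes (57.1%, compared with 28.1% of all placed peaks) and 18 of the 40 down peaks (45.0%, compared with 26.5%). Synpo2 alone had 9 of these 18 down peaks and 4 of the 8 up peaks. These are peaks of intron class, and 5 of the 18 down peaks, mostly in Synpo2, had the moved centre on an exon of the member. Without Synpo2, introns held 9 of 30 down peaks (30.0%, 16.7% to 47.9%), close to the share of all placed peaks, and 4 of 7 up peaks (57.1%). On all chromosomes, 20 of 36 up peaks of members were in introns (55.6%, compared with 27.8%).

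**Figure D2:**
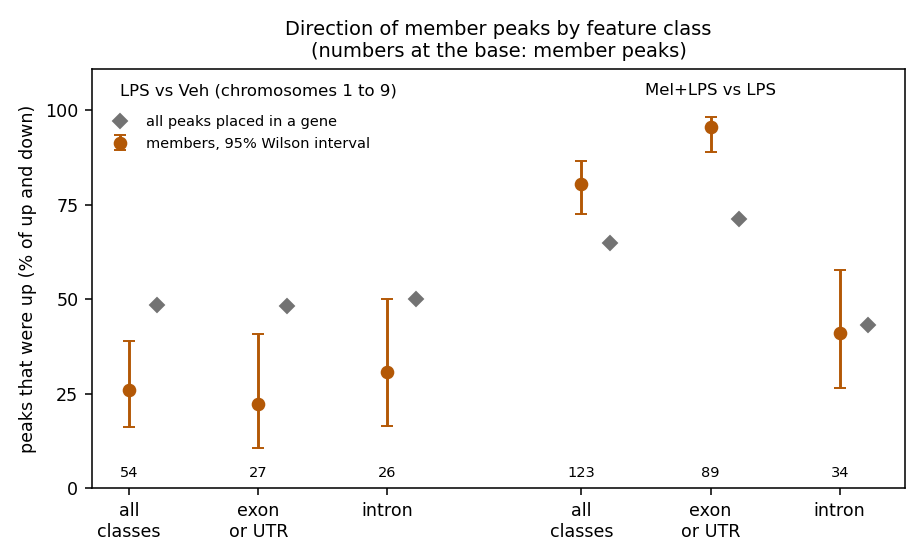
Percent of peaks that were up among up and down peaks, for members (circles with 95% Wilson intervals) and for all peaks placed in a gene (diamonds), by feature class and comparison; the number of member peaks stands at the base. The members' share lies below that of all peaks in LPS vs Veh (25.9% against 48.6%) and above it in Mel+LPS vs LPS (80.5% against 64.8%), where exon or UTR peaks reach 95.5%.

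Median scores of the members were close to those of all placed peaks for LPS-up peaks, lower for LPS-down peaks, and higher for both directions of Mel+LPS vs LPS. The median log10 likelihood ratio of member peaks was 2.68 for LPS-up and 2.10 for LPS-down peaks, compared with 2.76 and 2.57 over all placed peaks. It was 2.52 for Mel+LPS-up and 3.95 for Mel+LPS-down peaks, compared with 2.18 and 3.09. The higher value for down peaks goes with their place: the 20 intron peaks in that table had a median of 4.09 and the 4 exon peaks 2.71. Scores of at least 3 were held by 44.4% of LPS-up and 32.5% of LPS-down member peaks, compared with 47.2% and 44.5% of all placed peaks. For Mel+LPS-up and Mel+LPS-down member peaks the shares were 36.4% and 70.8%, compared with 32.8% and 50.8%. Some scores recur in a table many times over. The value 3.78 was shared by 1450 LPS-up peaks (12.1%) and 3.85 by 1370 Mel+LPS-down peaks (14.9%), and 3 and 4 member peaks had exactly these scores. In the same way 2 member peaks had the commonest score of LPS-down peaks, 3.63.

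**Figure D3:**
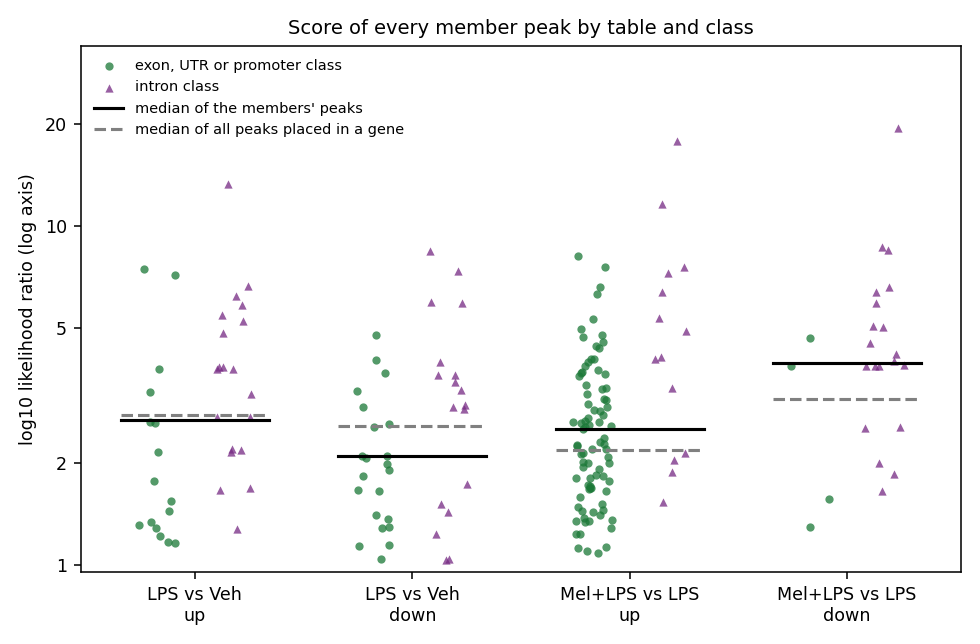
Log10 likelihood ratio (log axis) of each of the 199 member peaks in the 4 tables, with peaks of exon, UTR or promoter class as circles and intron peaks as triangles; solid lines give the members' median and dashed lines the median of all peaks placed in a gene. The highest values in each table are intron peaks, up to 19.4 in Myh11 among Mel+LPS-down peaks.

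Peaks of exon or UTR class lay displaced toward the 3′ side of the exons they were named for. Of 126 such member peaks, 56 had their centre on an exon of the member (44.4%). Of the 70 others, 69 had it on the 3′ side of the nearest exon, at a median of 45 bases. After a move of the centre by 100 bases in the 5′ direction, 124 of the 126 centres lay on an exon (98.4%), whereas a move of 150 bases left 106. All protein-coding genes behaved alike, with 62.7% of 17893 such peaks centred on an exon as deposited and 95.3% after the move of 100 bases. Among the 72 intron peaks of members, 16 had the moved centre on an exon and 56 did not. Positions below are given as deposited, and the moved centre is named where it changes the place of a peak. The cause of the displacement was not tested.

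The thin filament holds actin, tropomyosin and the proteins that regulate them. Actg2, on chromosome 6, had 6 LPS-down peaks and 4 Mel+LPS-up peaks, with none in the opposite tables. At exon 7 of 9 the LPS vs Veh peak at 83519675-83519840 had a score of 4.03, and the overlapping Mel+LPS vs LPS peak had 3.06. At exon 8 the scores were 3.26 and 1.77, at exon 6 they were 2.55 and 2.08, and at exon 2 they were 1.67 and 1.91. All 4 sites therefore carried less signal in LPS than in either of the other treatments, as the tables list them. The 2 remaining down peaks were of intron class, with scores of 2.87 and 1.43. Acta2, the smooth muscle alpha actin, had a single peak, up in Mel+LPS vs LPS at exon 7 of 9, with a score of 1.40. The actin genes have similar coding sequences. Whether reads were split between them was not tested, and their values are uncertain to that extent.

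Tagln had 2 LPS-down peaks in its 3′UTR, at 45929647-45929770 (score 1.13) and 45929971-45930074 (score 2.60) on chromosome 9. The first overlapped a Mel+LPS-up peak with a score of 1.48. Lmod1 (leiomodin, which nucleates actin filaments) had 1 peak, down in LPS vs Veh in intron 1, with a score of 5.93. Cnn1 (calponin, which inhibits the myosin ATPase) had 1, down in LPS vs Veh and of promoter class, with a score of 1.65. Of the 7 thin-filament members on chromosomes 1 to 9, Actg2, Tagln, Lmod1 and Cnn1 had LPS-down peaks and no LPS-up peak. Cald1 had both, and Tpm1 and Tpm2 had neither by the rule.

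Cald1 (caldesmon, which inhibits the actin-myosin interaction) and Smtn (smoothelin, a marker of contractile smooth muscle) had peaks in both directions. The highest member score among LPS-up peaks was 13.3, in intron 1 of 13 of Cald1 at chr6:34600423-34600549, and it overlapped a Mel+LPS-down peak with a score of 6.40. The highest score among LPS-down peaks was 8.42, also in Cald1, in intron 2 at 34666458-34666666. In Mel+LPS vs LPS, 5 exon peaks of Cald1 were up, with scores of 1.58 to 2.64, and 1 of them at exon 12 of 14 (2.52) overlapped an LPS-down peak with a score of 1.15. A further 2 Mel+LPS-up peaks of Cald1 were of intron class, with 3.32 in intron 2 and 2.03 in intron 13. Their centres, as deposited and moved, lay on an annotated exon of Cald1. Cald1 thus had its highest scores in introns 1 and 2, of opposite direction in LPS vs Veh, and lower scores on its exons. In Smtn, on chromosome 11, 4 peaks of intron class were up in LPS vs Veh (2.20 to 3.84). The highest overlapped a Mel+LPS-down peak with a score of 2.0, and the lowest had its moved centre on an exon. The 2 exon or UTR peaks of Smtn were up in Mel+LPS vs LPS (2.20 and 3.70).

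Among the genes of myosin and its phosphorylation, Mel+LPS vs LPS gave peaks in both directions in the same gene. Of 8 members, 6 had peaks up and the same number had peaks down: Myh11, Mylk, Ppp1r12a, Ppp1r12b, Rock1 and Rock2. Myh11 (smooth muscle myosin heavy chain) had the highest score of any member, 19.4, at a Mel+LPS-down peak in intron 3 of 40, chr16:14258690-14258890. This score ranked 8 among the 5675 placed peaks of the table. The 5 other Myh11 peaks of this comparison were up, with scores of 1.68 to 5.35, and all had their moved centre in coding sequence. LPS-up peaks of Myh11 numbered 2, with 1.16 at exon 20 of 41 and 2.15 in intron 5.

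Mylk (myosin light chain kinase) had a Mel+LPS-down peak with a score of 8.47 in intron 29 of 31, chr16:34993657-34993790, which overlapped an LPS-up peak with a score of 3.18. Its 3 exon peaks in Mel+LPS vs LPS were up (1.65 to 3.31), and it had 3 exon LPS-up peaks (1.54 to 3.24). Ppp1r12a, the targeting subunit of myosin phosphatase, had 4 exon LPS-up peaks, with scores of 1.16 to 1.77, and 5 up in Mel+LPS vs LPS, with scores of 1.34 to 2.67. No exon LPS-up peak of Ppp1r12a or Mylk overlapped a Mel+LPS-down peak. LPS-down peaks were not analysed for either gene, so an overlap of one with their Mel+LPS-up peaks could not be seen. The only Ppp1r12a Mel+LPS-down peak (4.18) was of intron class, in intron 19 of 25, and its moved centre lay in coding sequence.

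Ppp1r12b, a related targeting subunit, had its highest scores in introns: 7.55 up in Mel+LPS vs LPS in intron 18 of 24, and 6.61 down in the same comparison. At chr1:134936095-134936253, in intron 1, an LPS-up peak (3.78) overlapped a Mel+LPS-down peak (3.85), and both scores are the commonest value of their table. Rock1 and Rock2, kinases that inhibit myosin phosphatase, had 3 and 5 Mel+LPS-up peaks and 1 and 4 Mel+LPS-down peaks. The Rock1 down peak in intron 9 of 32 (4.0) occupied the same interval as an LPS-up peak (4.84). In Rock2 the down peaks lay at exon 10 (3.85), exon 15 (1.29), exon 16 (1.56) and in intron 1 (3.85), and the exon 16 peak overlapped an LPS-up peak (1.34). Rock2 supplied 3 of the 4 exon peaks of members that were down in Mel+LPS vs LPS. Myl9 and Ppp1r14a, which encode the regulatory light chain and a phosphatase inhibitor, had no peak.

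All 9 genes of dense bodies and intermediate filaments had a Mel+LPS-up peak, 47 peaks in all with a median score of 2.24. Flna had 11, all of exon or UTR class and with scores of 1.10 to 7.54, and Actn1 (alpha-actinin, which anchors actin in dense bodies) had 8, with scores of 1.23 to 3.65. Neither had a peak in any other table analysed. Without these 2 genes, the share of up peaks among the members in this comparison was 76.9%, within the interval above. Flnc had 4 up peaks (1.80 to 4.54), and Pdlim7 had 2 (1.38 and 1.54).

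Synm and Des had LPS-down peaks and Mel+LPS-up peaks, and no peak in the reverse directions. Synm, on chromosome 7, had 8 down peaks, of which 7 were exon peaks with scores of 1.28 to 3.68, and 7 up peaks, all in exons, with scores of 1.83 to 8.17. The overlapping peaks at 67733732-67733925 and 67733742-67734032, in exon 4 of 4, had scores of 3.68 (LPS-down) and 8.17 (Mel+LPS-up). The neighboring pair in exon 4 had 2.09 and 5.31, and the pair in exon 2 had 1.83 and 1.83. At none of its 8 overlaps counted by the rule was the Mel+LPS-up score of Synm the lower one at this precision. A further overlap in its 3′UTR, at 67730240-67730405, was not counted by the rule because the assigned gene was another. There the Mel+LPS-up score was the lower one, 1.99 against 3.005 for the LPS-down peak. Des, on chromosome 1, had 4 LPS-down peaks (1.29 to 4.75) and 3 Mel+LPS-up peaks (1.08 to 2.24). Its 3′UTR held the highest of them, 4.75 at 75367181-75367482, over an up peak of 1.72. Exon 1 had 2.06 and 2.24, and exon 4 had 1.40 and 1.08.

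Synpo2 (synaptopodin-2, an actin-bundling protein), on chromosome 3, had the most peaks of any member: 7 LPS-up, 10 LPS-down, 8 Mel+LPS-up and 2 Mel+LPS-down. Its score of 17.8, in intron 4 of 4 at 123084230-123084375, was the highest of any member Mel+LPS-up peak, and ranked 37 among 10459 placed peaks. In intron 1 it had peaks of all 4 kinds, with scores up to 6.67 for an LPS-up peak that overlapped a Mel+LPS-down peak (4.50). At 2 other sites of intron class the pair was reversed, with LPS-down scores of 3.28 and 1.04 and Mel+LPS-up scores of 4.10 and 1.88. At the first of them the centres of both peaks, as deposited and moved, lay on an annotated exon of Synpo2. The 4 exon peaks of Synpo2 in Mel+LPS vs LPS were all up, with scores of 1.28 to 2.56. Csrp1 (a LIM protein of the contractile program) had a Mel+LPS-down peak in intron 1 of 5 with a score of 8.65, and an exon 4 peak up with 1.69. Pdlim3 had 3 exon Mel+LPS-up peaks (2.12 to 2.99), and 1 peak each way in LPS vs Veh, 1.68 up and 1.51 down, of which the down peak overlapped the up peak of 2.26.

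Of the membrane attachment genes, Tln1 (talin, which links integrins to actin) had a peak of intron class up in Mel+LPS vs LPS with a score of 11.6 (intron 20 of 56, chr4:43546633-43546748), whose moved centre lay in coding sequence. Its 3 other up peaks had scores of 2.58 to 4.76, and exon 55 of 57 held an LPS-down peak with 1.91. Vcl (vinculin, a partner of talin) had 3 exon Mel+LPS-up peaks, with scores of 1.13 to 2.71. Dmd went the other way at an exon: at exon 39 of 78, chrX:83924948-83925147, an LPS-up peak had a score of 7.18 and the overlapping Mel+LPS-down peak had 4.66. A pair in intron 9 of 77 had 5.45 and 5.06. Another Dmd site, in intron 34, was up in Mel+LPS vs LPS with 7.24. Pgm5 had a single intron peak, up in LPS vs Veh (2.18), and Sgcd had none.

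Among the channels, Kcnma1 (the large-conductance calcium-activated potassium channel, which relaxes smooth muscle) had intron peaks only: 2 LPS-up and 3 Mel+LPS-down. At chr14:23451423-23451549, in intron 16 of 28, the same interval had 5.83 (LPS-up) and 5.93 (Mel+LPS-down), and at 23987063-23987262, in intron 1, it had 3.83 and 3.90. Kcnma1 was the only member that had Mel+LPS-down peaks and no Mel+LPS-up peak by the rule. Itpr1 had an LPS-up peak at exon 39 of 63 (7.45) and an LPS-down peak in intron 48 of 62 (7.38), whose moved centre lay in coding sequence, and 3 exon Mel+LPS-up peaks, the highest 6.62 at exon 29. None of them overlapped. Cacna1c (the L-type calcium channel) had an intron 3 peak each way in LPS vs Veh, 3.78 up and 3.96 down at separate sites, and 2 exon Mel+LPS-up peaks (3.97 and 3.39). Kcnmb1 and Oxtr had no peak by the rule. Of the 2 transcription regulators, Myocd (myocardin, which switches on contractile genes with SRF) had 1 peak, up in Mel+LPS vs LPS at exon 11 of 15 with a score of 4.05, and Srf had none.

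Overlapping peaks of opposite direction in the 2 comparisons numbered 32 by the rule, in 14 members. They were of 2 kinds, which cover different chromosomes, since LPS-down peaks were analysed on chromosomes 1 to 9 only. At 20 overlaps in 7 members an LPS-down peak lay over a Mel+LPS-up peak. By the class of the LPS vs Veh peak, 17 of these were in exons or UTRs and 3 in introns. At 12 overlaps in 9 members an LPS-up peak lay over a Mel+LPS-down peak, and 2 of these were in exons and 10 in introns. On chromosomes 1 to 9 there were 4 of the second kind, in Cald1, Ppp1r12b and Synpo2, all in introns. Because the LPS libraries enter both comparisons, a high or low signal in them alone gives opposite peaks, and the number of overlaps is a description. Overlaps were not counted over all placed peaks. Whether their number or their split between exons and introns is particular to the members was therefore not tested. Scores ran from 1.04 to 4.75 and from 1.08 to 8.17 in the first kind, and from 1.28 to 13.3 and from 1.56 to 8.47 in the second. When a peak was given to the member whose exon held its moved centre, the overlaps numbered 23. These include 3′UTR overlaps of the first kind in Csrp1, Cnn1 and Synm that the rule did not count.

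**Figure D4:**
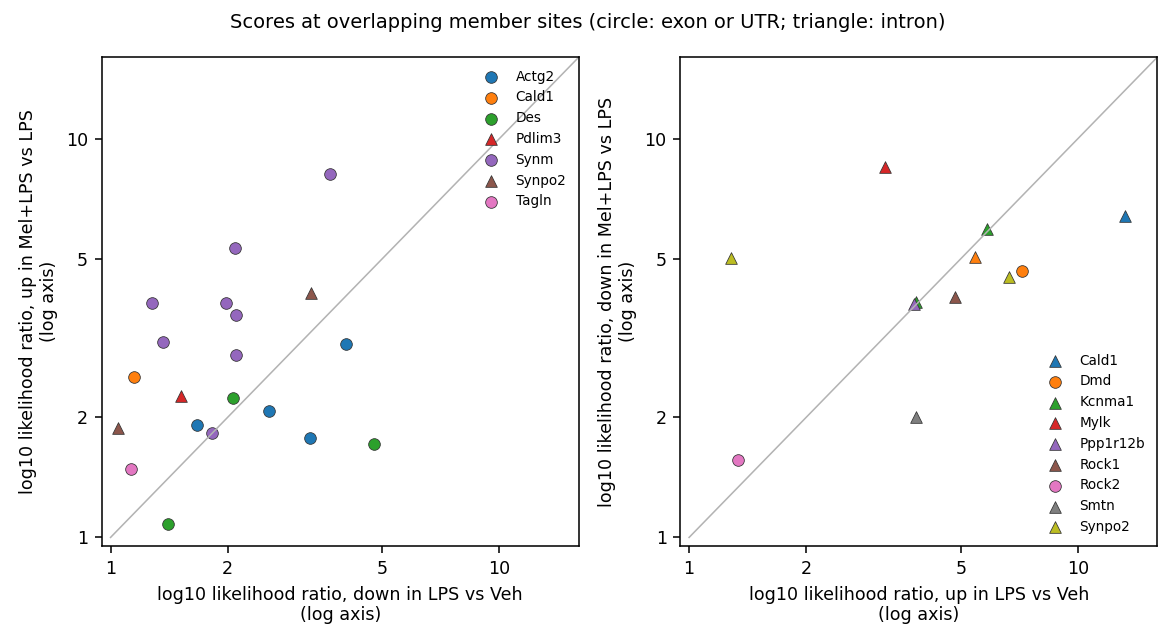
Log10 likelihood ratio in LPS vs Veh (x, log axis) and in Mel+LPS vs LPS (y, log axis) at the 32 overlaps, with the grey line at equal scores; circles are exon or UTR sites and triangles intron sites, by the class of the LPS vs Veh peak. The left panel (down, then up; chromosomes 1 to 9 only) holds 20 overlaps, mostly exon sites of Synm, Actg2 and Des, and the right panel (up, then down; all chromosomes) holds 12, mostly intron sites, with Cald1 farthest right at 13.3.

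The place of peaks along the transcript depended on how they were given to a gene. After the move of 100 bases, 89 Mel+LPS-up peaks counted by the rule fell on the member's GENCODE transcript, of which 83 were in coding sequence (93.3%) and 2 in the 3′UTR (2.25%). For all protein-coding genes the shares were 88.4% and 7.61%. Within 200 bases of the stop codon lay 2 of the 89 (2.25%, 0.618% to 7.83%), compared with 10.3% for all protein-coding genes. Of the LPS-down peaks 3 of 20 (15.0%) and of the LPS-up peaks 2 of 15 (13.3%) were in the 3′UTR, compared with 13.9% and 11.3%. The authors' 3′UTR class names no gene, so the rule counts a 3′UTR peak only where the assigned gene is the member, and it misses others. When a peak was given to the member whose exon held its moved centre, 14 of 118 member peaks in Mel+LPS vs LPS were in the 3′UTR (11.9%), compared with 2 of 123 by the rule (1.63%), and 14 of 40 in LPS vs Veh on chromosomes 1 to 9 (35.0%), compared with 6 of 54 (11.1%). The share over all genes by this placement is not given here. Whether the members differ from all genes in it was therefore not tested.

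**Figure D5:**
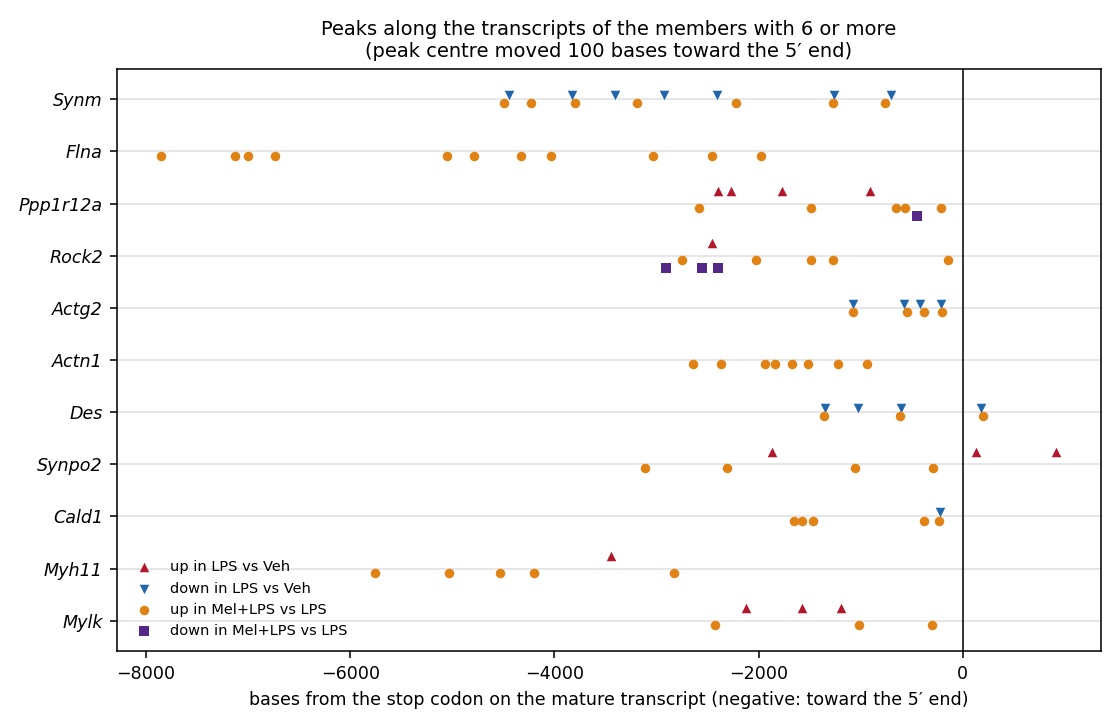
Place of 92 peaks on the mature transcripts of the 11 members with 6 or more such peaks, in bases from the stop codon (negative values lie toward the 5′ end), with the peak centre moved 100 bases toward the 5′ end; marker shape and colour give the table. Only peaks counted by the rule are drawn, which leaves out 3′UTR peaks assigned to another gene, among them peaks of Synm and Actg2. Of the peaks drawn, 4 lie beyond the stop codon, and Synm, Des and Actg2 have LPS-down and Mel+LPS-up peaks along the same stretches.

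GGAC was searched on the transcript strand in 200 bases around the peak centre. Of 42 member peaks whose centre and whole window lay on the transcript, 32 held it (76.2%, 61.5% to 86.5%), compared with 65.5% of 9501 windows of all protein-coding genes. With the centre moved 100 bases, 72 of 120 held it (60%, 51.1% to 68.3%), compared with 63.8% of 16211. With a 100-base window the share was 34.1% against 42.7%, with the centre moved 50 bases it was 64.4% against 64.7%, and for GGACT it was 21.4% against 28.4%. The members' share was therefore above that of all genes only with the 200-base window at the centre as deposited, and the value of all genes lay inside the members' interval in all 5 settings. In the stretches printed above, both Actg2 sites, the higher of the Synm sites, Itpr1 exon 39, Dmd exon 39 and Flna exon 21 hold no GGAC, while Des exon 4 holds 3. For Synm this depends on where the stretch was cut. The stretch of the overlapping LPS-down peak at that site, chr7:67733868-67733988, holds 1 GGAC. A match describes these letters only.

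The 9 members without a peak by the rule (Tpm1, Tpm2, Cnn2, Myl9, Ppp1r14a, Sgcd, Kcnmb1, Oxtr and Srf) had shorter transcripts than the others, with a median of 2098 bases against 4283. Their lengths ran from 950 to 4704, and the median over protein-coding genes was 2569. With the placement by the exon that held the moved centre, 169 peaks fell in 33 members, 29 of them not counted by the rule, and 4 of the 9 gained peaks. Tpm1 (tropomyosin) gained a 3′UTR LPS-down peak (1.12), Cnn2 gained a Mel+LPS-up peak (1.40) and a Mel+LPS-down peak (1.24), Srf gained a Mel+LPS-up peak (1.65), and Oxtr, the oxytocin receptor, gained a 3′UTR Mel+LPS-down peak (1.51). Csrp1 gained 2 LPS-down peaks (2.01 and 1.34) and a Mel+LPS-up peak (3.98) in its 3′UTR, and Cnn1 gained 1 down (1.70) and 1 up (1.21) there. Kcnma1 gained a Mel+LPS-up peak with a score of 4.02. By this placement 110 of 118 member peaks in Mel+LPS vs LPS were up (93.2%), against 80.5% by the rule, and the share over all genes by this placement is not given here. Tpm2, Myl9, Ppp1r14a, Sgcd and Kcnmb1 had no peak by either placement.

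A list of 60 other genes of contraction and its control was read the same way. LPS-up peaks were found in 21 of the 60 (35.0%), and LPS-down peaks in 12 of the 35 on chromosomes 1 to 9 (34.3%). The shares of all protein-coding genes were 20.1% and 22.0%. Mel+LPS-up peaks were found in 35 (58.3%) and Mel+LPS-down peaks in 20 (33.3%), compared with 25.6% and 15.3% of all protein-coding genes. The interval of the share with an LPS-down peak, 20.8% to 50.8%, overlapped that of the 20 members on these chromosomes, 38.7% to 78.1%, and the difference was not tested. The other 3 shares of the list lay within the members' intervals. The genes with the highest scores were Pde5a (5.99) and Cacnb2 (5.82) among LPS-up peaks and Stim1 (10.8) and Ryr3 (8.72) among LPS-down peaks. Ano1 (9.90) and Ldb3 (9.71) had the highest among Mel+LPS-up peaks, and Lpp (8.01) and Pxn (7.44) among Mel+LPS-down peaks.

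Markers of other cells of the uterus had differential peaks as well. LPS-down peaks were found in 3 of 5 epithelial, 3 of 8 stromal and decidual, 0 of 7 leukocyte and 2 of 7 endothelial markers on chromosomes 1 to 9, and LPS-up peaks in 1 of 11, 2 of 12, 4 of 12 and 4 of 8 of these markers on all chromosomes. The shares of all protein-coding genes were 22.0% for LPS-down peaks on chromosomes 1 to 9 and 20.1% for LPS-up peaks. Mel+LPS-up peaks were found, in the same order, in 2 of 11, 8 of 12, 3 of 12 and 5 of 8, and Mel+LPS-down peaks in 6 of 11, 2 of 12, 2 of 12 and 2 of 8. The highest scores among these markers were 12.5 (Pgr) and 8.76 (Esr1) for LPS-up peaks and 25.3 (Bmp2) and 15.9 (Cdh1) for LPS-down peaks. For Mel+LPS-up peaks they were 11.8 (Cdh1) and 11.6 (Col1a1), and for Mel+LPS-down peaks 11.6 (Pgr) and 9.04 (Esr1). Pgr and Esr1, the progesterone and estrogen receptors, are also made by smooth muscle cells. More of the stromal and decidual and of the endothelial markers had Mel+LPS-up than Mel+LPS-down peaks, as in the members. The epithelial markers had the reverse. All protein-coding genes also had Mel+LPS-up peaks more often, with shares of 25.6% up and 15.3% down. The leukocyte markers, with 3 of 12 up and 2 of 12 down, lay close to these shares. Whether any of these lists differs from all genes was not tested. The part that changes in the cells of the tissue had in the members' peaks was not tested.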

How the data were processed

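The 3 treatments had 3 input and 3 immunoprecipitated libraries each. Reads were trimmed by the authors (Fastp), mapped to mm10 (STAR 2.5.2a), used for peak calling (exomePeak2) and compared between treatments (MACS2), and the resulting peaks were annotated (ChIPseeker 1.22.1). How replicates and input entered the comparison is not given in the sources used here. The authors' deposited tables hold 1 log10 likelihood ratio per peak as score and no depth per library. From them, peaks were placed in genes by the rule in the text, features were read from the annotation, and shares, medians and overlaps (at least 1 base) were computed. Protein-coding genes (21887) came from the RefSeq table of GRCm38, and 99.8% of the assigned protein-coding genes lay inside the same symbol there. Transcripts of 21842 genes came from GENCODE mouse release 21. The planned sequence windows on the genome were taken on the spliced transcript instead, since no genome sequence was used here. The incomplete LPS-down table, 6414 peaks up to chromosome 10, was used on chromosomes 1 to 9. Its counts and the shares of up peaks were restricted to them, and LPS-up counts over all chromosomes are named as such.

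The members, lists and comparisons were chosen with earlier results of these data known. Members named with positions are the 3 with the highest score in each table, those with both directions in 1 comparison and those with opposite overlapping peaks. Flna, Actn1 and the remaining members are given by counts and ranges. Alternatives were other placements, score minimums (3 and 6), omission of off-exon peaks, merging within 100 bases, other overlaps, windows and motifs, and, added after the data were seen, the move of 100 bases. Steps were tested on simulated peaks. Python 3.11.15, numpy, pandas and matplotlib were used.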

Additional observations from a re-analysis of the deposited data

How the results depend on the processing

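No paired analysis was possible because the tables hold 1 score per peak and comparison and none per replicate, and for the same reason no replicate could be left out. Of 89 alternatives, 48 stayed within limits: within 1.5 times for a count or a median, and within the Wilson interval for a share. With the authors' assigned gene alone, 7 members had an up peak in LPS vs Veh. With the exon that holds the centre, 6 had one, with a median score of 1.39, and 3 had a down peak in Mel+LPS vs LPS, with a median of 1.51. With the moved centre (added after the data were seen) the former median was 1.61, and 6 members had a down peak in Mel+LPS vs LPS, with a median of 1.53. With exon or UTR peaks only, 9 members had LPS-up peaks (median 1.65), 7 had LPS-down peaks and 2 had Mel+LPS-down peaks. With a score of at least 6, 4 members had LPS-up, 2 had LPS-down, 8 had Mel+LPS-up and 5 had Mel+LPS-down peaks. With 1 peak per member the medians of LPS-down and Mel+LPS-up peaks were 3.99 and 3.83, since the highest peak was kept.

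The share in the 3′UTR, 11.1% in LPS vs Veh and 1.63% in Mel+LPS vs LPS, was 44.8% and 25.5% by the exon that holds the centre, 35.0% and 11.9% by the moved centre, 35.7% and 7.69% by the class of the centre on the transcript, and 38.2% and 9.73% by that of the moved centre. It was 4.76% and 0% with scores of at least 3 and 0% and 0% with at least 6. The share of up peaks in Mel+LPS vs LPS, 80.5%, was 94.5% and 93.2% by the centre and the moved centre, 95.5% and 41.2% with exon or UTR and with intron peaks, and 67.9% and 64.3% with scores of at least 3 and 6. In LPS vs Veh, 66.7% of peaks with at least 6 were up. Overlaps of opposite peaks numbered 12 with scores of at least 3. GGAC was found in 34.1% with 100-base windows and 60% with the moved centre, and GGACT in 21.4%. Apart from the smaller number of peaks under the stricter settings, the cause was not tested.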
